A study of Mus musculus with 15 samples.

Results

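The genes described here are the Hox, Pax, Nkx, Dlx, Irx, sine oculis (Six2, Six3 and relatives), Gata and Sim transcription factors of the mouse thalamus, regulators that pattern the embryo and that are held silent in most adult cells. They were chosen by symbol alone: every listed gene whose name matched one of these families, without Nkx6-2, which gave 88 of 25080 listed genes. They comprised 39 Hox genes, 9 Pax, 14 Nkx, 6 Dlx, 6 Irx, 6 sine oculis homologues, 6 Gata and 2 Sim genes. Much of the module was silent in the adult thalamus. In all 14 libraries 31 members (35.2%) were listed at 0 TPM (the length-normalised share of a library's transcripts), against 18.6% of all listed genes. Under 0.1 TPM in all of them were 54 (61.4%), against 27.6%. Without the Hox genes these shares were 10.2% and 34.7%, so the excess at 0 TPM lay in the Hox genes. A minority of the 88 was expressed, 15 members reaching 1 TPM in at least 1 library and 12 having a mean of at least 1 TPM. Of 65 members with a median under 0.1 TPM in some group, none (0) had a median of 0.5 TPM or more in another. This stood beside 213 of 9491 such genes among all listed, a share at which 0 of 65 says little. None of the 13 members with enough signal to be tested was called in any comparison of cocaine or genotype, beside 0.0371% to 3.1% of all tested genes. At such shares 0 of 13 says little about the members. Their standard errors were also wider, with a median of 0.27 against 0.0759 for all genes between control cocaine and control saline.

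The thalamus was microdissected from mice aged 2 to 4 months, on a C57Bl/6 background, and its RNA sequenced after 3 days of saline and then 5 days of cocaine (20 mg/kg, intraperitoneal) or saline. Control mice are titled Maged1 WT and described as carrying floxed Maged1 without Cre, and in Maged1-cKO mice Cre under the vGluT2 promoter deletes Maged1 in vGluT2 glutamatergic neurons and leaves it in other cells of the tissue. Of 15 samples, 14 libraries were used. Control mice gave 4 libraries after saline and 4 after cocaine, and Maged1-cKO mice 4 after saline and 2 after cocaine. The genotype tag names the other genotype for 4 of the saline libraries, and the groups used here follow the titles.

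Maged1 itself (on the minus strand of chrX:94535474-94542143 in GRCm38) went against the labels after cocaine. It was at 164, 189, 168 and 166 TPM in the control saline libraries and at 89.4, 86.8, 83 and 69.2 TPM in those labelled cKO saline. After cocaine the control label held 49.7, 76.7, 62.5 and 61.7 TPM, and the cKO label 144 and 140.4 TPM, so that after cocaine the higher level was in the libraries labelled cKO. Every direction below is therefore one between libraries as labelled. TPM keep no sequencing depth, so the counting error of low values is unknown. Excitatory thalamic markers were present throughout, Slc17a6 (vesicular glutamate transporter) at 59.5 to 119.9 TPM and Tcf7l2 (thalamic transcription factor) at 73.7 to 122.01 TPM, but neighbouring tissue differed between libraries. The summed TPM of a habenula marker list ran from 9.70 to 150.8, of a GABAergic prethalamic list from 21.9 to 289.2, of a hypothalamic list from 24.7 to 673.7 and of a choroid plexus list from 6.89 to 1575.

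Homeobox genes encode factors that give cells their position along the body and brain axes. Hox genes act in the hindbrain, spinal cord and trunk and are largely left off in the forebrain. Dlx, Pax6, Nkx2, Six3 and Irx genes act in the forebrain and midbrain, where Dlx genes direct GABAergic neurons and Pax6, Nkx2-2 and Irx genes help to divide the diencephalon into prethalamus, thalamus and pretectum. Outside their own domain such genes are classical targets of the Polycomb complexes, which place the repressive marks H3K27me3 and H2AK119ub over CpG-rich promoters. No chromatin mark was used here, so the values bear on silence and not on Polycomb occupancy.

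Promoters of 6 members are printed to show how CpG content and expression were combined in this module, as the 250 bases before the RefSeq start in GRCm38.p6, 5′ to 3′, with each CpG in capitals. Six3 (chr17:85620584-85620833, plus strand) was the member of highest mean level. Its close neighbour Six2 (chr17:85688255-85688504, minus strand) was near silent and was the member that came nearest to appearing. Dlx1 (chr2:71529195-71529444, plus strand) and Dlx2 (chr2:71546755-71547004, minus strand) are a convergent pair. Hoxd1 (chr2:74762730-74762979, plus strand) had the highest single value of any Hox gene, and Hoxa9 (chr6:52227371-52227620, minus strand), chosen after the values were seen, was listed at 0 throughout.
Six3: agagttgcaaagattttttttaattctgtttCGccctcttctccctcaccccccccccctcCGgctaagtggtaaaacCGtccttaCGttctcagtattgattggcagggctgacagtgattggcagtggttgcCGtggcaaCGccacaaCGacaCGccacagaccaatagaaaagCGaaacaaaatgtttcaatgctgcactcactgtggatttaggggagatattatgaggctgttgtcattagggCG
Six2: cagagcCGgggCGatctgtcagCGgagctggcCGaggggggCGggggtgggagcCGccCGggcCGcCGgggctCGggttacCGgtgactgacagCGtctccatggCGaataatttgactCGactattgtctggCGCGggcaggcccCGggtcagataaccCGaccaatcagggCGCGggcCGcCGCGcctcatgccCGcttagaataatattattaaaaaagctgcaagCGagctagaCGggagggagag
Dlx1: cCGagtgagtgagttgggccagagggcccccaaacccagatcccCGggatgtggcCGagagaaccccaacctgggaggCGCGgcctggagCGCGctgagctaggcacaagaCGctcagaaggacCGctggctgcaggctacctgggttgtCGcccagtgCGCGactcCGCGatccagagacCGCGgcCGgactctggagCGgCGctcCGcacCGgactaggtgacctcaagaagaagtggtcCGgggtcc
Dlx2: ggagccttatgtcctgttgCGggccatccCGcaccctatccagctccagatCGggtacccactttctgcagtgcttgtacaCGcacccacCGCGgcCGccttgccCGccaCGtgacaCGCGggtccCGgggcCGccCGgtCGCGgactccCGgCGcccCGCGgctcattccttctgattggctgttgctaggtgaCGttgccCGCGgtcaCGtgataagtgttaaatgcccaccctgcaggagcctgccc
Hoxd1: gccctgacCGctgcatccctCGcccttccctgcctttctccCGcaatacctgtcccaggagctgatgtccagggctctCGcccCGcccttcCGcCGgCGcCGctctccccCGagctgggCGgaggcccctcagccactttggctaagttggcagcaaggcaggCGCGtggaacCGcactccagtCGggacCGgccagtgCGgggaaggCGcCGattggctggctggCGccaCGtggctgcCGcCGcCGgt
Hoxa9: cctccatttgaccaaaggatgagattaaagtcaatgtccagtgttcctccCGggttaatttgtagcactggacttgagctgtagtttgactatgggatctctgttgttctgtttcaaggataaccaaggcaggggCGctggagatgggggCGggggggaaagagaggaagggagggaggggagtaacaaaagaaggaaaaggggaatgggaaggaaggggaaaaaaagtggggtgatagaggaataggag

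Expression did not follow the number of CpGs among these 6 promoters, which were picked largely by their values and do not stand for the module. Six3, expressed, held 10 CpGs in the 250 bases, whereas Six2, near silent, held 26. Dlx1 and Dlx2 held 22 and 24. Hoxd1 held 24 CpGs and Hoxa9 held 3, although neither passed 0.25 TPM in any library. Over 32851 RefSeq promoters of this length the median was 6 CpGs, with quartiles of 2 and 16. The letters TAATTA, the core bound by many homeodomain proteins and the same on both strands, were in none (0) of the 6 promoters and in 4.84% of all promoters. At that share 0 of 6 says little.

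Over the whole module, CpG content was measured in the first 300 bases of the longest annotated transcript (GENCODE M21), which was found for all 88 members. The 54 members under 0.1 TPM in every library had a median of 16 CpGs there, with quartiles of 11.5 and 25.8, and the 31 listed at 0 a median of 15. All listed genes under 0.1 TPM had a median of 4 CpGs, with quartiles of 2 and 7, in the 5592 of 6910 that had such a transcript. The counts in expressed members and expressed genes lay close together, with a median of 22 in the 15 members reaching 1 TPM and of 20 in the listed genes reaching it. The silent members thus carried starts of a CpG content nearer to that of expressed genes than to that of other silent genes. These are descriptions with no test.

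The Hox clusters, which specify hindbrain, spinal cord and trunk, were the most silent family. Of 39 Hox genes, 26 were listed at 0 in every library and 37 never reached 0.1 TPM. None of the 11 Hoxa, 10 Hoxb or 9 Hoxc genes reached 0.1 TPM, whereas 2 of 9 Hoxd genes did, Hoxd1 and Hoxd11. A library held between 2 and 6 Hox genes above 0, with a median of 4. Among the highest means per cluster were 0.0189 TPM for Hoxa7, 0.00969 for Hoxb4 and 0.00629 for Hoxb1, 0.00658 for Hoxc8 and 0 for Hoxc4, and 0.0643 for Hoxd1 and 0.0530 for Hoxd11. Hoxd11 was above 0 in 12 of 14 libraries and Hoxc8 in only 1, at 0.0922 TPM. Hindbrain and spinal markers were low as well, with a summed level of 1.35 to 2.93 TPM over 11 genes.

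The other families were mixed. All 6 Irx genes, 6 Dlx genes and 6 sine oculis homologues were above 0 in some library, while 1 of 9 Pax, 3 of 14 Nkx and 1 of 6 Gata genes were listed at 0 throughout. The members reaching 1 TPM were 1 Pax gene, 3 Nkx, 4 Dlx, 4 Irx and 2 Gata genes and Six3. Leaving out Hox, 10.2% of the members were at 0 in every library and 34.7% under 0.1 TPM, beside 8.89% and 30% of 90 other developmental regulators (Lhx, Sox, Fox, T-box and like genes). Over all listed genes the shares were 18.6% and 27.6%. Each library held 21 to 27 members at or above 0.1 TPM, with a median of 25, with group medians of 25 for control saline, 24.5 for control cocaine, 26 for cKO saline and 24 for cKO cocaine, and the groups overlapped.

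**Figure D1:**
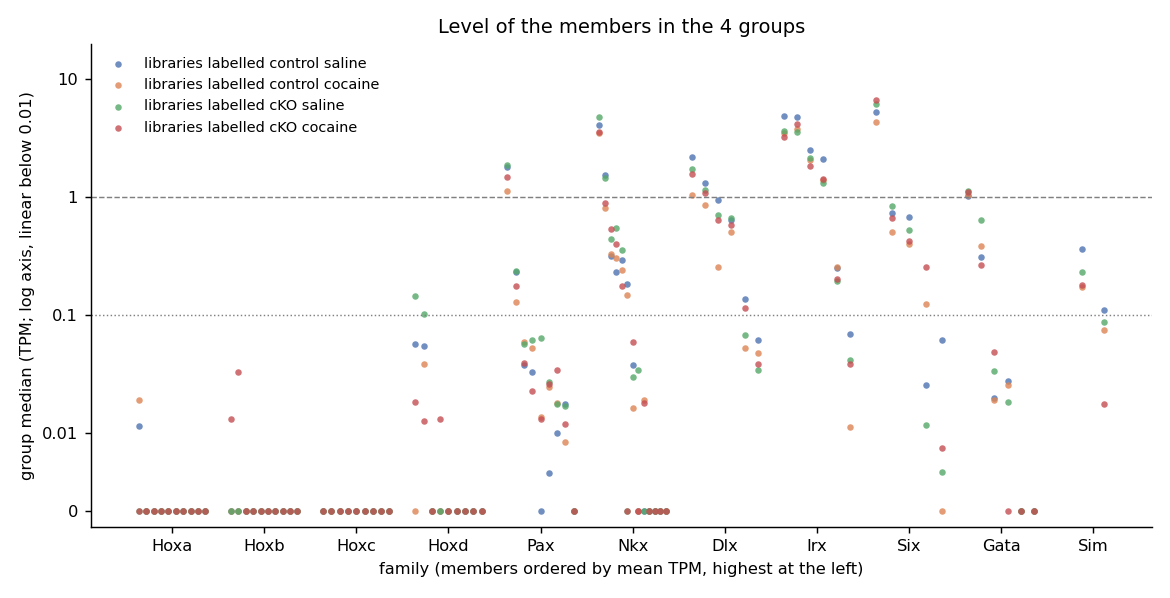
Group median of 85 members in TPM, on a log axis that is linear below 0.01, arranged by family with members ordered by their mean, 1 point per group of libraries. Points at 0 lie on top of each other. The dotted line marks 0.1 TPM and the dashed line 1 TPM; nearly all Hox points lie at 0, and the highest points belong to Six3, Irx1, Irx2 and Nkx2-2.

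Six3, a forebrain and eye field regulator that persists in parts of the adult prethalamus and hypothalamus, had the highest mean of the module (5 TPM, chr17:85613608-85629302). Its values were 5.43, 5.88, 5.23 and 1.64 TPM in control saline and 0.555, 3.5, 5.53 and 5.14 TPM in control cocaine. Under the cKO label they were 10.1, 8.98, 1.42 and 3.32 TPM after saline and 6.46 and 6.8 TPM after cocaine. Cocaine and saline libraries overlapped under each label, and the highest of the 14 libraries was 18.3-fold above the lowest. The residual SD of Six3 on the log2 scale lay above that of 98.5% of all tested genes.

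Dlx1, Dlx2, Dlx5 and Dlx6, the factors of forebrain GABAergic neurons, form 2 pairs of neighbouring genes, Dlx1 and Dlx2 separated by 9.43 kb on chromosome 2 and Dlx5 and Dlx6 by 9.24 kb on chromosome 6. Dlx1 (chr2:71528113-71533981) was at 2.5, 3.07, 1.86 and 0.913 TPM in control saline, 0.0416, 2.12, 1.49 and 0.614 TPM in control cocaine, with 2.91, 2.87, 0.601 and 0.565 TPM under the cKO label after saline and 1.64 and 1.49 TPM after cocaine. Dlx6 (chr6:6863334-6868568) was at 1.39, 1.44, 1.24 and 0.648, then 0.0618, 1.91, 1.17 and 0.529, then 1.77, 2.38, 0.513 and 0.423, and 1.27 and 0.891 TPM in the same order of groups. Both were lowest in replicate 1 of the libraries labelled control cocaine and overlapped between all groups. Dlx2 and Dlx5, named because they are the partners of this pair of genes, ranged from 0.0236 to 1.17 TPM and from 0.143 to 1.04 TPM, with the same lowest library. The remaining Dlx genes, Dlx3 and Dlx4, stayed under 0.1 and under 0.25 TPM.

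The Dlx genes and GABAergic markers of neighbouring tissue were lowest in the same library. Their summed level was 0.27, 5.85, 3.63 and 1.7 TPM in control cocaine, where the prethalamic GABA list (14 genes, none a member) summed to 21.9, 141, 149 and 105 TPM. In cKO saline the Dlx sum was 6.8, 7.36, 1.78 and 1.56 TPM beside list sums of 289, 248, 105 and 127 TPM. The library with the lowest Dlx sum, replicate 1 of control cocaine, had the lowest list sum of all 14, with Gad1 (GABA synthesis) at 3.97 TPM against 17.3 to 94.7 TPM elsewhere. Of the list, 1 gene (Sp8) was at 0 in every library and 11 of 14 genes were lowest in that library. The match was not particular to GABAergic markers. The same library had the lowest sums of the hypothalamic (24.7 TPM), oligodendrocyte (1396 TPM), oligodendrocyte precursor (94.0 TPM) and microglia (64.3 TPM) lists, and the highest of the habenula list (150.8 TPM). In bulk tissue, fewer cells of a type and less RNA per cell cannot be told apart, and the part of dissected prethalamic tissue in these values was not tested.

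Irx1, Irx2, Irx3 and Irx5, Iroquois factors of the midbrain, caudal diencephalon and habenula, were expressed in every library. Irx2 (chr13:72628820-72634198) was at 4.59, 5.22, 4.62 and 6.21 TPM in control saline, 10.4, 3.37, 3.59 and 2.29 TPM in control cocaine, with 1.88, 3.45, 3.9 and 4.74 TPM under the cKO label after saline and 4.23 and 2.24 TPM after cocaine. Irx1 (chr13:71957921-71963723), 665.1 kb away, was at 3.77, 5, 4.73 and 4.85, then 8.73, 3.58, 4.02 and 1.91, then 2.41, 3.31, 3.86 and 4.66, and 4.88 and 3.49 TPM. For both genes the highest library and, for Irx1, the lowest one carried the same label, control cocaine. Irx3 (chr8:91798525-91802067) ranged from 1.35 to 3.37 TPM, and Irx5 (chr8:92357625-92376286) from 0.480 to 2.54 TPM. Irx6 was at 0.0839 to 0.403 TPM and Irx4 stayed under 0.1 TPM.

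Irx levels and habenula markers were highest and lowest in the same libraries. The summed Irx level was 25.1, 10.3, 11.2 and 6.03 TPM in control cocaine, beside habenula list sums (12 genes, with Tac2 the most abundant) of 151, 49, 51.1 and 9.7 TPM. In control saline it was 12.5, 14.9, 13.9 and 16.4 TPM beside 67.7, 75.4, 62.3 and 89.1 TPM, and in cKO saline 7.18, 9.86, 11.6 and 13.4 TPM beside 19.5, 44, 31.5 and 59.1 TPM. The libraries labelled cKO cocaine held 12.8 and 8.63 TPM beside 63.9 and 26.4 TPM. The 3 libraries of the highest and the 3 of the lowest Irx sums were also those of the highest and lowest habenula sums. At the low end the match was not particular to habenula markers. Control cocaine replicate 4 also had the lowest choroid plexus (6.89 TPM), ependymal (4.23 TPM) and striatal (43.8 TPM) list sums. Control cocaine replicate 1, with the highest Irx sum, was highest for none of these lists. Tac2, a habenular neuropeptide, was at 65.0 TPM in control cocaine replicate 1 and at 0.956 TPM in replicate 4. Of the list, none (0) was at 0 in every library, and the part of habenular tissue in the Irx values was not tested.

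**Figure D2:**
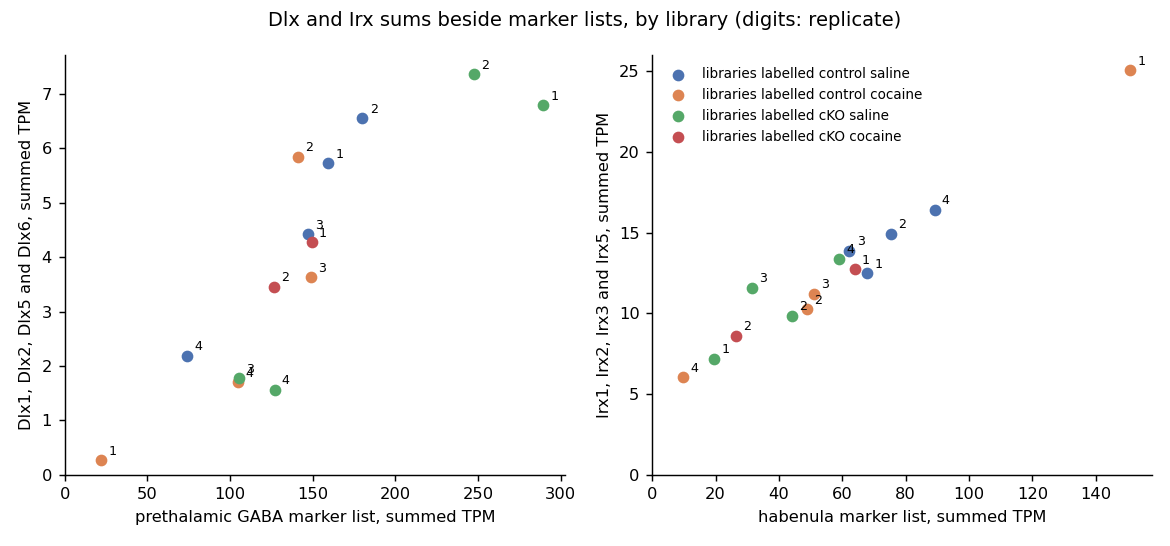
Each point is a library, coloured by its labelled group and numbered by replicate. The left panel plots the summed TPM of Dlx1, Dlx2, Dlx5 and Dlx6 against that of the prethalamic GABA list, and the right panel that of Irx1, Irx2, Irx3 and Irx5 against the habenula list; control cocaine replicate 1 lies at the bottom left of the first (0.270 and 21.9 TPM) and the top right of the second (25.1 and 150.8 TPM).

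Nkx2-2, which marks ventral progenitors and oligodendrocyte lineage cells and a boundary zone of the thalamus, was the most even of the 4 members of highest mean, which are Six3, Irx2, Irx1 and Nkx2-2. Its values (chr2:147177546-147194243) were 3.42, 4.43, 4.06 and 4.18 TPM in control saline, 2.58, 3.59, 3.44 and 3.83 TPM in control cocaine, with 5.11, 5.14, 3.72 and 4.51 TPM under the cKO label after saline and 3.73 and 3.36 TPM after cocaine, a 1.99-fold range. The symbol Nkx2-2os is carried by more than one annotated gene, one of them antisense to Nkx2-2, and ranged from 0.133 to 0.423 TPM. Nkx2-1 (chr12:56531958-56536908), a hypothalamic and ventral forebrain factor, was at 1.4, 2.08, 1.67 and 1.41 TPM in control saline, 0.414, 1.75, 0.915 and 0.71 TPM in control cocaine, with 1.76, 1.94, 1.02 and 1.17 TPM under the cKO label after saline and 0.84 and 0.958 TPM after cocaine. Cocaine and saline overlapped for Nkx2-1 under the control label but not, in TPM, under the cKO label, and the hypothalamic list beside it summed to 339, 674, 376 and 199 TPM in control saline and 24.7, 182, 150.1 and 88 TPM in control cocaine. Its part in the Nkx2-1 values was not tested.

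Pax6 (chr2:105668900-105697364), a regulator of prethalamic and eye development, was at 1.77, 2.01, 1.85 and 1.59 TPM in control saline, 1.02, 1.82, 1.1 and 1.14 TPM in control cocaine, with 2.17, 2.25, 1.55 and 1.51 TPM under the cKO label after saline and 1.52 and 1.45 TPM after cocaine. Pax9 was the next Pax gene, at 0.0479 to 0.286 TPM, and the other 7 Pax genes had lower means. Gata2 (chr6:88193891-88207032), which with Gata3 directs GABAergic neurons of the midbrain, was the steadiest expressed member, at 1.1, 1.29, 0.764 and 0.944 TPM in control saline, 1.02, 0.913, 1.05 and 1.06 TPM in control cocaine, with 1.08, 1.09, 1.34 and 1.17 TPM under the cKO label after saline and 1.09 and 1.13 TPM after cocaine. Gata3 was far less even, from 0.0800 to 1.32 TPM. Six4 ranged from 0.433 to 0.935 TPM, and Sim1 and Sim2, of the hypothalamus and midline, from 0.0377 to 0.741 TPM and from 0 to 0.128 TPM.

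**Figure D3:**
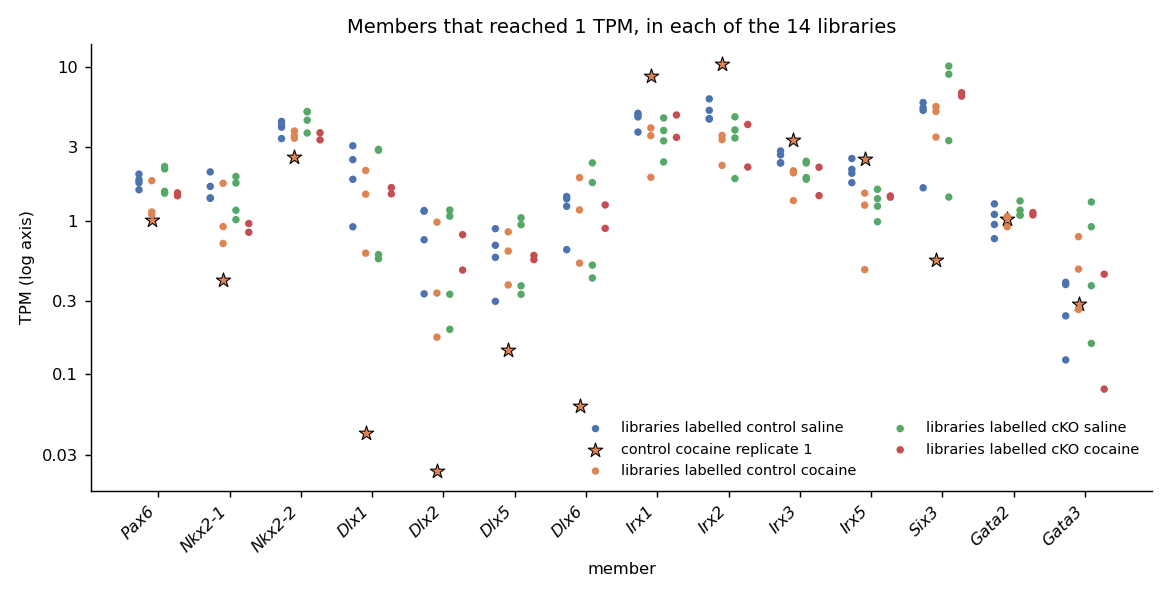
TPM (log axis) of 14 members that reached 1 TPM, with 1 point per library in columns by labelled group; the star is control cocaine replicate 1. The star is the lowest of 14 points for 8 members (Pax6, Nkx2-1, Nkx2-2, Dlx1, Dlx2, Dlx5, Dlx6 and Six3) and the highest for Irx1, Irx2 and Irx3.

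Replicate 1 of the libraries labelled control cocaine set many extremes of the module. It was lowest for 8 of the 15 members reaching 1 TPM and highest for 3 of them. Control cocaine replicate 4 was lowest for Irx1, Irx3 and Irx5, and cKO saline replicate 2 was highest for Pax6, Nkx2-2, Dlx2 and Dlx6. The 13 tested members had a median residual SD of 0.43 on the log2 scale, against 0.11 for all 13471 tested genes. Gata2 had the smallest (0.14) and Six3 the largest (1.01).

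Whether repeated cocaine altered the module was tested with limma on all 13471 genes that passed 1 TPM in at least 3 libraries, on log2(scaled TPM + 0.5), with a call needing a Benjamini-Hochberg adjusted p under 0.05 and a log2 fold change of at least 0.5 either way. Between the libraries labelled control cocaine and control saline, limma called 0 of the 13 tested members, beside 3.1% of all tested genes. At an unadjusted p under 0.05 it found 1 member, Gata2, beside 36.9% of all genes. On the scaled values no member (0 of 13) had groups that did not overlap, beside 25.1% of all genes. The median fitted log2 difference was -0.10 over the members and 0.01 over all genes, and 6 members had positive and 7 negative values. The median standard error was 0.27 for members and 0.0759 for all genes. The scaling mattered for the signs: its factors were 1.07 to 1.21 in the 8 saline and 0.807 to 0.947 in the 6 cocaine libraries, and in TPM as deposited the median of all genes was -0.34 in the control groups and -0.35 in the cKO groups. There 2 members were positive and 11 negative in the control groups, and 5 positive and 8 negative in the cKO groups, with member medians of -0.40 and -0.05.

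The single members gave the following differences, cocaine minus saline on the log2 scale with the SE. Gata2 had 0.26 ± 0.11 (limma, adjusted p = 0.11), the smallest adjusted p of the module. Dlx1 had the most negative value, -0.63 ± 0.53 (limma, adjusted p = 0.411), which became -0.16 without control cocaine replicate 1. Six3 had -0.10 ± 0.63, which became 0.49 without the same library and -0.46 without control saline replicate 4. Without control cocaine replicate 1 Dlx6 went from -0.18 to 0.23, Irx1 from 0.17 to -0.18, Irx2 from 0.08 to -0.33 and Irx3 from 0.09 to -0.10, and without control cocaine replicate 4 Irx5 went from -0.25 to 0.07, so 1 library set the sign of these members.

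Between the libraries labelled cKO cocaine and cKO saline, limma again called 0 of 13 members, beside 3.07% of all tested genes. At an unadjusted p under 0.05 it found 1 member, beside 33.7%. On the scaled values groups did not overlap for 3 members, Irx5 and Gata2 among them, beside 43.3% of all genes in this comparison of 2 libraries with 4, although Irx5 and Gata2 overlapped in TPM. The median log2 difference was 0.23 over the members and 0.00 over all genes. Of 13 members 11 had positive values on the scaled values, the largest being Six3 with 0.79 ± 0.77 (limma, adjusted p = 0.512) and Irx1 with 0.56 ± 0.39 (adjusted p = 0.341). Without cKO saline replicate 3 Six3 was at 0.29 and Dlx1 went from 0.39 to 0.11.

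**Figure D4:**
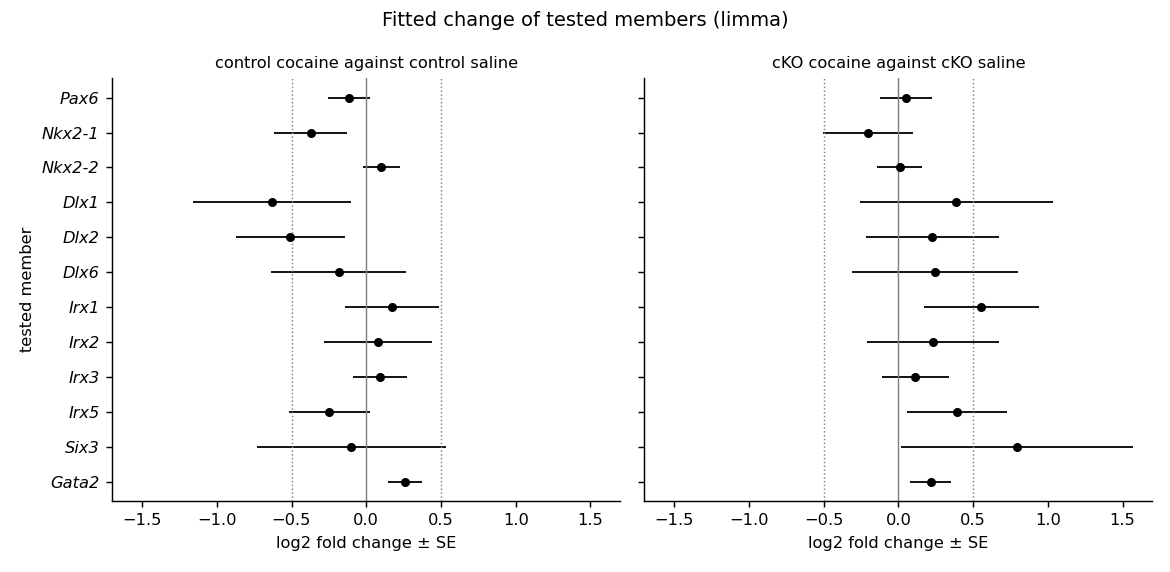
Fitted log2 difference between cocaine and saline libraries for 12 tested members, with bars for the standard error, on the left for libraries labelled control and on the right for those labelled cKO; dotted lines mark the minimum of 0.5 needed for a call. Bars are widest for Six3 and Dlx1, and Dlx1 lies to the left of 0 on the left (-0.63) and to the right of it on the right (0.39), where its bar crosses 0.

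Genotype was compared within each treatment. Between cKO saline and control saline, limma called 0 of 13 members, beside 0.0445% of all tested genes, and found 0 at an unadjusted p under 0.05, beside 16.7%. The median difference was -0.16 over the members. Irx5 was the only tested member without overlap, beside 12.8% of all genes, at 1.77, 2.04, 2.16 and 2.54 TPM in control saline and 0.984, 1.24, 1.39 and 1.6 TPM in cKO saline (-0.56 ± 0.27; limma, adjusted p = 0.322). The habenula list moved beside it, with a median log2 difference of -1.18 over its 10 tested genes, none (0) of which was called by limma and 4 of which had an unadjusted p under 0.05. It was not alone: the medians were -1.28 for the choroid plexus list, -0.98 for an ependymal list and -0.94 for the hypothalamic list. An oligodendrocyte list went the other way, at 0.45. The part of habenular tissue in the Irx5 difference was not tested.

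Between cKO cocaine and control cocaine, limma called 0 of 13 members, beside 0.0371% of all genes, and found 1 at an unadjusted p under 0.05, beside 12.1%. On the scaled values no member (0) was free of overlap, beside 17.6% of all genes. The interaction, which asks whether the difference between cocaine and saline libraries depended on the labelled genotype, called 0 members by limma, beside 0.854%. It gave 1 at an unadjusted p under 0.05, beside 18.5%. The largest positive interaction values were those of Dlx1, 1.02 ± 0.83, and Six3, 0.89 ± 1.00, with standard errors close to the values themselves. Without control cocaine replicate 1 they were 0.55 and 0.30.

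Most members lay below the filter and their appearance was asked directly. A member was taken as appearing in a group if its median there was at least 0.5 TPM while its median in some other group was under 0.1 TPM. Of 65 members with a group median under 0.1 TPM, none (0) appeared, beside 213 of 9491 such genes among all listed and 0 of 44 among the other developmental regulators. No test was run on this count, and at the share of all listed genes 0 of 65 says little about the members. The nearest member was Six2, a regulator of kidney and craniofacial progenitors, with a median of 0.254 TPM in cKO cocaine and 0.0116 TPM in cKO saline. After it came Nkx2-4, with its highest median in control saline (0.183 TPM), and Hoxd1, with its highest in cKO saline (0.145 TPM).

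Six2 and Six6 are named from here on because of their values. Six2 (chr17:85684277-85688274, 54975 bases from Six3) was at 0.0361, 0.0224, 0.028 and 0 TPM in control saline and 0.145, 0.253, 0 and 0.105 TPM in control cocaine. It was at 0, 0.0358, 0.0233 and 0 TPM in cKO saline and 0.273 and 0.235 TPM in cKO cocaine. In 5 of the 6 cocaine libraries Six2 was above all 8 saline libraries, which held for 1 of 88 members (1.14%) and for 91 of 25080 listed genes (0.363%), a count whose threshold was chosen after the values were seen. The exact two-sided permutation p was 0.143 in the control groups and 0.0667 in the cKO groups, the smallest that 2 libraries against 4 can give. As Six2 was named for these values, neither p is support for a difference.

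With no filter on low values, limma called Six2 in the cKO groups, with a log2 difference of 0.62 ± 0.13 (adjusted p = 0.0143). This p comes from the same selected values and is no support for a difference. The size depends on the 0.5 added before the logarithm: it was 1.80 with 0.1 added and 0.35 with 1 added, the latter under the minimum for a call. This was 1 of 88 members, beside 1.36% of 25080 genes called in that fit. In the control groups it was not called (0.29 ± 0.11, limma adjusted p = 0.111), where 0 of 88 members were called in the unfiltered fit, beside 1.45% of genes. At an unadjusted p under 0.05 that fit found 4 of 88 members in the control groups, beside 23.1% of all genes, and 5 in the cKO groups, beside 21.1%. Both counts lay under the background, but 31 members (35.2%, against 18.6% of all genes) were at 0 in every library and could not differ. Neither these counts nor the calls of that fit therefore show that members changed less than other genes. The interaction for Six2 was 0.33 ± 0.17 (limma, adjusted p = 0.452), so a difference in its response between genotypes was not shown. At such levels the scale understates fold changes, and 0.25 TPM remains far below the level of Six3.

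Six6, an eye field and hypothalamic factor, was highest in control saline. It was at 0.045, 0.0779, 0.0278 and 0.115 TPM in control saline and listed at 0 in all 4 control cocaine libraries. In cKO saline it was at 0.00991, 0, 0 and 0.0106 TPM and in cKO cocaine at 0.0161 and 0 TPM. Control saline thus lay above every other library. As this separation is what singled the gene out, no permutation p is given for it. With no filter limma gave a log2 difference of -0.16 ± 0.03 between the control groups (adjusted p = 0.0141), under the minimum for a call. This p comes from the same selected values, all 4 of control cocaine being 0, and is no support for a difference. The size was -0.65 with 0.1 added in place of 0.5 and -0.084 with 1 added. Six6 was 1 of 88 members above 0 in all control saline and at 0 in all control cocaine libraries, a pattern shared by 42 of 25080 listed genes.

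Hypothalamic markers differed between the same groups. Oxt (oxytocin) was at 108.3, 202.7, 203.5 and 96.0 TPM in control saline and at 0, 0, 0.188 and 0 TPM in control cocaine. It was at 2.71, 2.92, 29.6 and 0.620 TPM in cKO saline and at 8.27 and 42.6 TPM in cKO cocaine. Of the 20 hypothalamic genes, 13 were tested and 6 were called lower in control cocaine by limma. The part of hypothalamic tissue in the Six6 values was not tested. Sim1, another hypothalamic factor, was at 0.332, 0.741, 0.341 and 0.383 TPM in control saline and at 0.0377, 0.350, 0.204 and 0.140 TPM in control cocaine, and these groups overlapped (exact two-sided permutation p = 0.143).

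Hoxd1 was the Hox gene of highest level. It was at 0.0622, 0.0515, 0.0644 and 0.0482 TPM in control saline and 0, 0.0514, 0 and 0 TPM in control cocaine. It was at 0.184, 0.247, 0.107 and 0.0489 TPM in cKO saline and 0 and 0.0362 TPM in cKO cocaine. The 3 highest libraries were all labelled cKO saline, and the groups overlapped with control saline (exact two-sided permutation p = 0.0857). Hoxd11 ranged from 0 to 0.132 TPM, with its 2 highest libraries also labelled cKO saline.

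**Figure D5:**
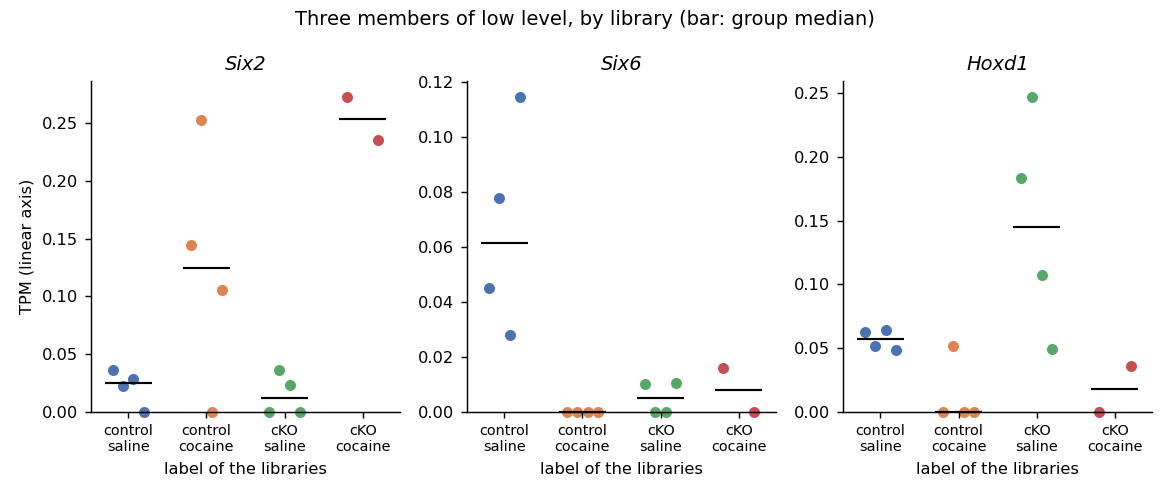
TPM (linear axis, starting at 0, with its own scale in each panel) of Six2, Six6 and Hoxd1 in each library, by labelled group, with a bar at the group median. Six2 is highest in the libraries labelled cKO cocaine (0.273 and 0.235 TPM), Six6 lies above 0.02 TPM in control saline alone, and Hoxd1 is highest in cKO saline, with 0.247 TPM the top value of any Hox gene.

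Traces of silent genes occurred on both sides. Of the members, 5 were above 0 in cocaine libraries only (Hoxa5, Hoxb1, Hoxc8, Hoxd4 and Gata4) and 5 in saline libraries only (Hoxb3, Hoxb5, Hoxb13, Hoxd8 and Nkx1-1). These names were taken after their values were seen. Nkx1-1 reached 0.109 TPM and the others stayed under 0.1 TPM, most of them above 0 in a single library. Over all listed genes 351 were above 0 in cocaine libraries only and 1061 in saline libraries only, of which there were 6 and 8.

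Genes of the Polycomb machinery were detected throughout, some of them at levels under the filter for testing. All 35 listed genes of the Polycomb repressive complexes were above 0 in every library, from Phf19 (a PRC2 accessory factor) at 0.0541 to 0.236 TPM to Cbx6 (a chromobox reader) at 41.4 to 60.2 TPM. Of PRC2, Ezh1 was at 7.45 to 11.8 TPM and Ezh2 at 1.30 to 2.56 TPM, and of PRC1, Rnf2 was at 2.70 to 5.14 TPM. Their summed level was 240.9 to 358.2 TPM. Limma called 0 of the 31 tested genes of this list in all 5 comparisons, beside 0.0371% to 3.1% of all tested genes. The fold minimum decided this for cocaine, the smallest limma adjusted p being 0.0033 in the control groups and 0.0012 in the cKO groups. At an unadjusted p under 0.05 limma found 14 in the control groups, 19 in the cKO groups, 6 between genotypes after saline, 5 after cocaine and 7 for the interaction, beside 36.9%, 33.7%, 16.7%, 12.1% and 18.5% of all tested genes. Each count was a larger part of the 31 genes than the share beside it, most clearly in the cKO groups.

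The median log2 difference of the Polycomb list was 0.03 in the control groups and 0.05 in the cKO groups, beside 0.01 and 0.00 over all tested genes, but -0.31 and -0.31 in TPM as deposited, beside -0.34 and -0.35 over all genes. Of 21 genes that oppose Polycomb silencing, among them the deubiquitinases Usp7 and Bap1 and the demethylase Kdm6a, all were tested and limma called 0 in each comparison. The fold minimum again decided this for cocaine, the smallest limma adjusted p being 0.00015 in the control groups and 0.0035 in the cKO groups. At an unadjusted p under 0.05 there were 8, 11, 1, 2 and 2 in the same order. As parts of the 21 genes, the first lay close to the same share of all genes, the second above it and the others below. Of 24 cofactors of homeodomain proteins, such as Meis, Pbx and Eya genes, 20 were tested and 0 were called by limma. The fold minimum decided this too, the smallest limma adjusted p being 0.00018 in the control groups and 0.00043 in the cKO groups. At an unadjusted p under 0.05 there were 6, 4, 3, 2 and 2, each below the share of all genes. Among the other developmental regulators 23 of 90 were tested, and limma called 1, Gbx2, a thalamic homeobox gene, higher in cKO cocaine than in cKO saline. Gbx2 was at 9.03, 10.4, 15.1 and 9.83 TPM in cKO saline and at 16.0 and 16.9 TPM in cKO cocaine.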

How the data were processed

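RNA of the thalamus was sequenced after ribosomal RNA depletion with a stranded paired-end protocol. The authors deposited TPM per gene symbol for each library, made with STAR 2.5.3a and Salmon on GRCm38.p4 according to the study's methods; TPM are divided by transcript length and library total, so the depth and the counting error of a library are unknown. The other tables, recorded as unit other, are deposited TPM of 2 libraries whose decimals are set off by commas, read here as points. Each table adds up to between 312659 and 377401 TPM, the rest of each total lying in transcripts not listed. No counts were used, although the study's own tests were made on them.

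The members and lists were chosen with earlier results of these data known. Values were divided by TMM factors without weights (trimming 30% of log ratios and 5% of mean levels) and turned into log2 after adding 0.5. Of 25080 genes, the 13471 that reached 1 TPM in 3 or more libraries entered limma 3.58.1 in R 4.3.3, with 4 group means and an intensity trend. Members under the filter were described by TPM, by exact permutation tests of single genes and by an unfiltered fit; the procedure was tested on simulated data. Named members were those with a mean of at least 1 TPM, the 2 highest of each family, and any called or appearing in a group; others complete a family or were named after their values were seen. The study calls the samples independent and gives sample sizes in general as numbers of animals; p-values measure the spread between these samples. Coordinates are from GENCODE M21 (GRCm38). RefSeq promoters were found for 55 of 88 members (62.5%), too few for a comparison over the module, which is void; transcript starts were used. One cKO cocaine sample was not analysed here, and some members are counted but their values are not reported here or drawn. Scripts ran in Python 3.11.15 (scipy 1.17.1, numpy 2.4.6, matplotlib 3.10.9, pandas 2.3.3).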

Additional observations from a re-analysis of the deposited data

Results flagged for a closer look

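In 65 groups of 4 libraries, formed by members and labelled groups, 3 held a library far from the other 3 by Dixon's ratio of gap to range; chance gives about 1 in 20. Six3 in control saline replicate 4 was at 1.64 TPM, against 5.43, 5.88 and 5.23 TPM. The prethalamic GABA list was lowest of its group in the same library, at 74.1 TPM against 147.2 to 180.1 TPM. Sim1 in control saline replicate 2 was at 0.741 TPM, against 0.332, 0.341 and 0.383 TPM, and the hypothalamic list was highest in that library, at 673.7 TPM. Hoxd1 in control cocaine replicate 2 was at 0.0514 TPM while the other 3 libraries were listed at 0. The part of neighbouring tissue in these values was not tested.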

How the results depend on the processing

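The count of 0 called members held under all 27 alternatives between genotypes after saline and all 27 after cocaine. It became 1 in few settings. With TPM as deposited and no scaling, 1 member was called lower in each cocaine comparison, Nkx2-1 being that in control; the same setting raised the calls over all genes from 417 to 2425 and from 414 to 3147, lowered those for the interaction from 115 to 17, and moved the share of calls that were higher from 49.6% to 2.19% and from 59.7% to 2.07%. With no filter on low values (which called 56 genes for the interaction and 13 between genotypes after cocaine, against 115 and 5), and with a filter at 0.1 TPM (10 genes after cocaine), 1 member was called in cKO, Six2. It passed the filter at 0.1 TPM through cocaine libraries only, so that call is no further support. Leaving out single libraries gave 0 to 1 in the control groups and for the interaction, the 1 arising without control cocaine replicate 3, and 0 in the other comparisons. Replicate numbers, from the titles, did not pair the samples (deviations of same-numbered libraries correlated by -0.0139 on average). A replicate block gave 0 members in all 5 comparisons, and over all genes 387 and 372 calls for cocaine in control and cKO and 32 for the interaction and 2 between genotypes after cocaine, against 115 and 5 without it. Without the intensity trend the interaction called 78 genes. The count of silent members appearing, 0, became 1 (Six2) at the looser thresholds of 0.05 and 0.25 TPM, and ran from 0 to 1 when single libraries were left out, the 1 being Gata3 without cKO cocaine replicate 1. The median number of members detected per library, 25 at 0.1 TPM, was 15.5 at 0.5 TPM and 40 for any value above 0. Control cocaine replicate 3 was the only control cocaine library with Six2 listed at 0, so leaving it out separated the groups. The exact permutation p was then 0.0286, the smallest that 3 libraries against 4 can give, and is no added support. The Six2 difference between the control groups (0.29) became 0.42 without that library and ran from 0.19 to 0.42 over single libraries. That of Six6 (-0.16) became -0.082 with genotype taken from the tag and ran from -0.19 to -0.12 over single libraries (from -0.65 to -0.084 with 0.1 and 1 added before the logarithm, where the Six2 difference in cKO, 0.62, became 1.80 and 0.35). The cause of these shifts was not tested. Unknown depth limits every statement on values under 0.1 TPM.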
